A study of Mus musculus with 8 samples.

Results

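The transcripts described here are those of the enzymes that break glucose down to pyruvate and of Slc2a1, the glucose transporter of the plasma membrane, as measured in MC/9 exosomes and in MC/9 cells. The 10 genes Hk1, Hk2, Pfkl, Aldoa, Tpi1, Pgk1, Pgam1, Eno1, Pkm and Slc2a1 were chosen by name. Every probe set whose annotated symbols include one of them was taken, which gave 23 probe sets for 9 genes out of 45101 probe sets on the array. Eno1 is not analysed here. Of the 23 probe sets, 22 carry 1 gene symbol, and the other carries Hk1 together with the ribosomal protein gene Rpl17 and several of its pseudogenes.

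MC/9 is an established murine mast cell line. Exosomes are membrane vesicles of endosomal origin that leave the cell when multivesicular bodies fuse with its surface. The study asked which RNA such exosomes hold compared with their parent cells. It compared RNA of exosomes, ultracentrifuged for 70 min from supernatant passed through a 0.22 µm filter, with RNA of the cells. Each group had 4 Affymetrix Mouse430_2 arrays, made from 5 µg of total RNA each. All cultures were of the same untreated line, grown in medium with bovine serum and a conA-containing supplement from rat T cells, per the labels' protocols. The labels name the arrays biological replicates without stating whether separate cultures were grown, so the p-values measure the spread between these extracts, which may be technical. Each extract pools many cells or vesicles, so fewer vesicles with a transcript and less of it in each vesicle cannot be told apart.

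Glycolysis converts glucose to pyruvate in the cytosol and yields ATP and NADH. Glucose enters through facilitative transporters such as Slc2a1, is trapped by hexokinase, committed by phosphofructokinase, split by aldolase, and then oxidised and rearranged until pyruvate kinase makes pyruvate, which lactate dehydrogenase can turn into lactate. Most of these enzymes are abundant in proliferating cells, and activated mast cells are known to draw on glycolysis.

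Promoter windows are shown for Slc2a1 and Hk2, the genes whose representative probe set, the brightest one with that symbol alone, did not exceed a background level set on each exosome array. They are RefSeq windows of GRCm38.p6, from 250 bases before to 50 after the gene's start. Capitals mark ACGTG or its reverse complement CACGT, letters found in the core of hypoxia response elements and of E-boxes. The sequences were as follows, with Slc2a1 at chr4:119108495-119108794 on the plus strand and Hk2 at chr6:82774405-82774704 on the minus strand.
Slc2a1: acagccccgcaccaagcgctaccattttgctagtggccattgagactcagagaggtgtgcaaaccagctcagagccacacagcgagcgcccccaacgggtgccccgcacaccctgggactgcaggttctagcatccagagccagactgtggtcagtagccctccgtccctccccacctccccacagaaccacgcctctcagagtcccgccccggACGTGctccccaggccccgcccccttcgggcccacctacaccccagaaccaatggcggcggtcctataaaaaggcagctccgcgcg
Hk2: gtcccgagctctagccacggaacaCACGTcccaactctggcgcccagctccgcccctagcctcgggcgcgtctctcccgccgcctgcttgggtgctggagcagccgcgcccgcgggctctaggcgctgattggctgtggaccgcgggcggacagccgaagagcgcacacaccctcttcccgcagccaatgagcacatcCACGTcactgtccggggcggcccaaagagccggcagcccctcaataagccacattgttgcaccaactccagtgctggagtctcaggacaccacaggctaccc
Hk2 held 2 matches and Slc2a1 held 1. Among the 10 listed genes, 7 had a match in at least 1 of their windows, and 8 of 16 windows held one, against 19.6% of the 32851 windows of the table. Some genes have several windows and so more room for a match, and no share of all genes with a match was counted. The Aldoa windows with a match overlap, so they may hold the same one. The motif was searched on both strands, and the matches are a description of letters only.

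As a detection floor, each array was given the 95th percentile of its 163 probe sets for genes that mast cells should not use, namely beta-defensins, keratin-associated proteins and taste, vomeronasal and olfactory receptors. It lay at 274 ± 33.3 on exosome arrays and at 12.8 ± 2.48 on cell arrays (SD, n = 4), on signals that the authors' scaling sets to the same trimmed mean on every array. On the same scale the bacterial hybridisation controls, spiked in at a set amount per hybridisation, exceeded the cell arrays by 4.51 on the log2 scale on the exosome arrays (two-sided exact permutation test, p = 0.0286, which no design with 4 arrays in each group can go below). The cells carried mast cell markers: 9 of 9 measured genes of that list passed the floor on each cell array. Their summed signal was 42822 to 47187 in cells and 1364 to 1860 in exosomes. All 9 fell in exosomes, where 44.7% of all tested genes fell, and 4 of the 9 passed the floor on no exosome array. The measured T cell and B cell markers were above the floor on no cell array. The macrophage markers Csf1r and Adgre1 passed it on 4 and 3 cell arrays, at 23.9 ± 3.50 and 15.5 ± 3.21 (SD, n = 4), and both read higher in exosomes, at 185 ± 62.5 and 149.7 ± 34.1, though under the exosome floor on every array. Alb passed on 2 cell arrays, and Cd68, Hba-a1 and Col1a2 on 1 each. None of the measured T cell, B cell, macrophage, erythroid, fibroblast or hepatocyte markers was above it on all exosome arrays, and their summed signals per list were 1.80 to 57.5 in cells and 10.0 to 706 in exosomes. Their part in the results was not tested.

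All 9 measured glycolysis genes were lower in exosomes than in cells. On the probe set that stands for each gene, the one with the highest mean of log2(signal + 4) over all arrays, 9 of 9 genes fell and 0 rose (limma, Benjamini-Hochberg adjusted p under 0.05 over 20425 tested probe sets). Among all 9788 tested genes 44.7% fell and 14.9% rose. The median difference of the 9 genes, exosome minus cell on the log2 scale, was -3.66, against -1.07 for all tested genes. That median is the value of Hk2, which was under the floor on all exosome arrays, so its size is not a measured one. With the floor as the lowest signal the median was -3.05, against 1.39 for all tested probe sets, a setting under which dim genes rise by construction. Of the 9, 7 lay in the top 10% of cell signal, and the median difference of the probe sets in that top 10% was -3.72. The median of the 9 genes, -3.66, lay close to that value, but no test was run and nothing can be concluded from the closeness. Among the 1821 probe sets of that top 10%, 55.2% passed the floor on no exosome array. The value -3.72 thus rests largely on exosome signals under the floor, as -3.66 does through Hk2. The top 10% also holds 16 of the glycolysis probe sets, so it is not a separate set. Differences on this scale understate changes of dim probe sets.

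**Figure D1:**
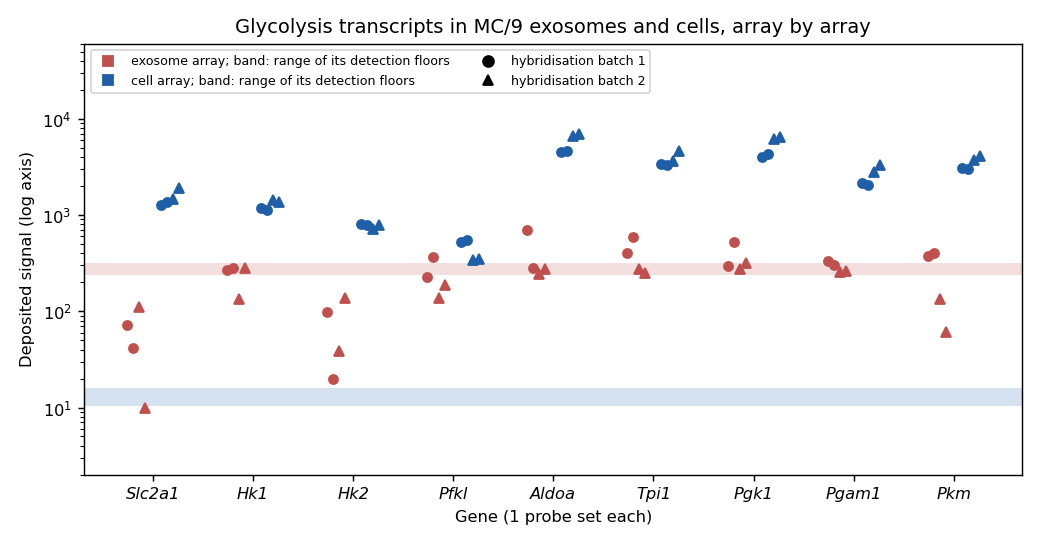
Deposited signal on a log axis for the probe set that stands for each of 9 genes, with 1 point per array, exosome arrays in red and cell arrays in blue, circles for hybridisation batch 1 and triangles for batch 2. Bands span the detection floors of each group's arrays, 239.7 to 318 for exosomes. Cell points lie above exosome points for each gene except Pfkl, and exosome points range from 9.80 for Slc2a1, under the exosome floor, to 694 for Aldoa, above it.

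Slc2a1, the transporter, was bright in cells and did not reach the floor in exosomes. Its signal was 71.9, 41.5, 111 and 9.80 on exosome arrays 1 to 4 and 1281, 1377, 1457 and 1933 on the cell arrays. Every exosome value was under the floor of its array, and the groups did not overlap. Slc2a1 was therefore at least 5.48-fold lower in exosomes on the deposited scaling (58.6 ± 43.4 against 1512 ± 290, SD, n = 4; limma, adjusted p = 4.62e-05). The bound sets each exosome signal under the floor to the floor, while the adjusted p-value given beside a bound tests the deposited signals. Its other probe sets, also under the floor on every exosome array, were at least 3.42-fold and at least 1.67-fold lower (limma, adjusted p = 4.59e-05 and 0.00649). The last did not pass with quantile normalization, or when arrays were equalised on commonly detected probe sets (limma, adjusted p = 0.069 and 0.14).

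The hexokinases trap glucose in the cell as glucose phosphate, Hk1 as the broadly expressed form and Hk2 as the inducible one. Hk2 read 97.3, 19.6, 38.6 and 136 on exosome arrays and 808, 784, 724 and 787 on cell arrays. The cell values lay close together and all exosome values were under the floor, so Hk2 was at least 2.85-fold lower (72.9 ± 53.5 against 776 ± 36.4, SD, n = 4; limma, adjusted p = 0.000175). Hk1 read 272, 280.1, 133 and 281 on exosome arrays and 1177, 1121, 1421 and 1364 on cell arrays. Exosome arrays 1 and 2 were above the floor, and array 3 was the low one. Hk1 fell by 2.43 ± 0.31 on the log2 scale (SE; limma, adjusted p = 9.58e-05), and with quantile normalization it did not pass (adjusted p = 0.054, where the difference was -1.31).

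A second Hk1 probe set, under the floor on all exosome arrays, was at least 2.54-fold lower. In contrast, the probe set that carries Hk1 and Rpl17 together read 5915, 5136, 4157 and 3347 on exosome arrays and 5451, 5789, 7058 and 7804 on cell arrays. All exosome arrays were far above the floor and the groups overlapped. Its difference of -0.51 on the log2 scale did not pass (limma, adjusted p = 0.11), and which of its genes gave the signal cannot be read from it. It became 0.43 under the commonly detected scaling, which equalises the arrays on the probe sets that pass the floor on each of the 8 arrays.

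Pfkl, the liver-type phosphofructokinase that commits sugar to glycolysis, gave the smallest difference of the 9 genes, and the call depended on the setting. Its representative read 229.8, 364, 136 and 186 on exosome arrays and 529.9, 547, 340.4 and 352 on cell arrays. Exosome array 2, the sole one above the floor, was higher than cell arrays 3 and 4, so the groups overlapped. Pfkl fell by 0.99 ± 0.37 on the log2 scale (SE; limma, adjusted p = 0.0391). It did not pass within batch 1, under the commonly detected scaling (-0.07), with quantile normalization (-0.48), without a trend in the variance model, or without exosome array 1, 3 or 4 or cell array 1 or 2, where the difference was -1.02 to -0.78 in these 5 cases.

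The other Pfkl probe sets went in opposite directions. One, under the floor on all exosome arrays at 107 ± 46.4 and at 695 ± 63.7 in cells (SD, n = 4), was at least 2.54-fold lower (limma, adjusted p = 0.000106). The other read 245, 312, 182 and 17.05 on exosome arrays against 19.9, 27.9, 6.39 and 12.8 on cell arrays, and exosome array 4 fell within the cell range. It was above the floor on 2 exosome arrays and rose by 2.80 ± 0.81 (SE; limma, adjusted p = 0.0134). That was the sole rise among the 23 probe sets, and it turned to -1.08 when the hybridisation controls set the scale and to -0.30 with the poly-A controls. It was 1.67 with quantile normalization, 2.04 after subtracting the background median and 2.24 within batch 2, and passed under none of these (limma, adjusted p = 0.19 and 0.20 for the former pair).

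Aldoa, the aldolase that splits the hexose into trioses, has 5 probe sets. Its representative read 694, 281, 247 and 277 on exosome arrays and 4496, 4605, 6637 and 6956 on cell arrays. Exosome array 1 stood above the others, and arrays 1 and 2 passed the floor. Aldoa fell by 4.02 ± 0.36 on the log2 scale (SE; limma, adjusted p = 8.9e-06). Its exosome mean was 6.60% of its cell mean.

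Of the other Aldoa probe sets, 3 also fell, by 3.43 and 3.84 for a pair of them, while the third stayed under the floor in exosomes throughout and was at least 13.0-fold lower. The remaining one did not: it read 534, 647, 376 and 593 on exosome arrays and 389, 452, 427 and 515 on cell arrays. It was above the floor on all 8 arrays, its groups overlapped, and its difference of 0.25 did not pass (limma, adjusted p = 0.48). It passed as a rise of 1.18 under the commonly detected scaling (limma, adjusted p = 0.0036) and of 1.68 with quantile normalization (limma, adjusted p = 0.0013). With arrays scaled to the hybridisation controls this difference was -4.21.

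Tpi1, triosephosphate isomerase, interconverts the products of aldolase. Its representative read 404, 595, 275 and 249 on exosome arrays and 3405, 3334, 3622 and 4599.9 on cell arrays. Exosome arrays 1 to 3 passed the floor, and the groups were well apart. Tpi1 fell by 3.36 ± 0.31 on the log2 scale (SE; limma, adjusted p = 1.22e-05). Of its other probe sets, 1 fell by 3.72 and the other, under the floor on all exosome arrays, was at least 9.49-fold lower.

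Pgk1, phosphoglycerate kinase, makes the first ATP of the pathway and was the gene whose representative passed the floor on the most exosome arrays. Its representative read 293, 525, 273 and 319.9 on exosome arrays, each above that array's floor, and 3971, 4330.4, 6174 and 6452 on cell arrays. On exosome arrays 3 and 4 it lay close to the floors of 259.6 and 318, and at the 99th percentile floor exosome array 2 alone passed. No other representative of the 9 genes passed the floor on each exosome array. Pgk1 fell by 3.89 ± 0.30 on the log2 scale (SE; limma, adjusted p = 3.85e-06). A second Pgk1 probe set was also above the floor throughout, at 439 ± 116 in exosomes and 4004 ± 1039 in cells (SD, n = 4), and fell by 3.19. The third passed the floor on 1 exosome array and fell by 3.92.

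Pgam1, phosphoglycerate mutase, had the narrowest exosome values. They were 331, 299.9, 256 and 260.5, with the first and second above the floor, against 2135, 2055, 2782 and 3296 in cells. Pgam1 fell by 3.12 ± 0.26 on the log2 scale (SE; limma, adjusted p = 6.53e-06). Pkm, pyruvate kinase of muscle and most dividing cells, read 378, 407, 135 and 60.4 on exosome arrays and 3055, 3044, 3751 and 4119.9 on cell arrays. Its exosome arrays of batch 1 were above the floor and those of batch 2 under it. Pkm fell by 4.16 ± 0.54 on the log2 scale (SE; limma, adjusted p = 9.46e-05), with -2.95 within batch 1 and -5.38 within batch 2. The batch 2 value rests on exosome signals under the floor, so its size is not a measured one. With the floor as the lowest signal the difference of Pkm was -3.35. For Hk1, Aldoa and Pgam1, each also above the floor on 2 exosome arrays, it was then -2.15, -3.95 and -3.05.

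Over all 23 probe sets, 20 fell, 1 rose and 2 did not pass, against 37.2% that fell and 18.5% that rose of all 20425 tested probe sets. For 19 of the 23 every exosome array was below every cell array, against 36.8% of tested probe sets. All 23 entered the test, since each was above the floor on at least 3 cell arrays, and 22 were above it on all 4.

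**Figure D2:**
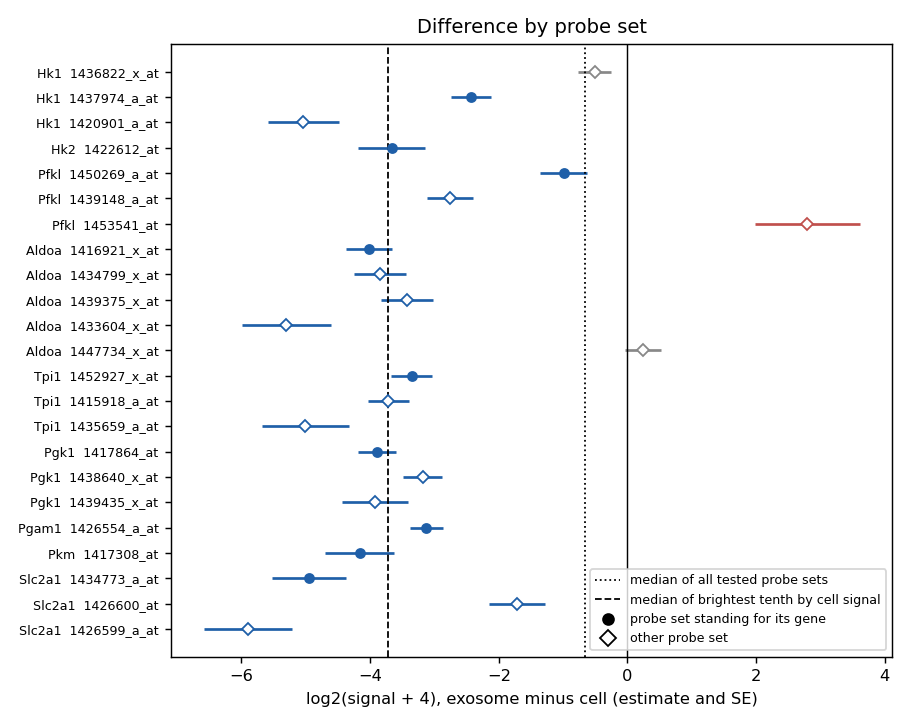
Difference between exosome and cell arrays in log2(signal + 4) for each of the 23 probe sets, with its standard error; filled circles are the probe sets that stand for a gene, blue marks falls, red the rise and grey what did not pass. The dotted line is the median of all tested probe sets, -0.66, and the dashed line that of the top 10% by cell signal, -3.72, around which most glycolysis probe sets lie.

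Detection in exosomes differed between arrays. Of the 23 probe sets, 13 and 15 passed the floor on exosome arrays 1 and 2, the arrays of hybridisation batch 1, and 6 on each of arrays 3 and 4, of batch 2. Over the whole array, of 45037 probe sets, those passing the floor numbered 4112, 2807, 3092 and 1794 on exosome arrays. On cell arrays they numbered 20887 to 22695. The glycolysis transcripts did not follow the exosome order, since exosome array 3 had more than array 2 in total and fewer of the 23. Of the 23, 4 passed the floor on each exosome array, 11 on 1 to 3 and 8 on none. The 4 are the Pgk1 representative, a second Pgk1 probe set, an Aldoa one and the one shared by Hk1 and Rpl17. The signal of the shared one cannot be credited to Hk1. Among all probe sets above the floor on every cell array, 2.52% passed it on each exosome array and 80.5% on none. Of the 16 that lie in the top 10% of cell signal, 3 passed on each exosome array and 4 on none. These shares were 13.7% and 55.2% among the 1821 probe sets so bright in cells. The shared probe set is among the 3. By its construction the floor lets through about 5% of probe sets without signal on an array, so the exosome counts may hold many such probe sets.

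Within each batch the direction was the same for all 9 representatives. In batch 1, 8 of 9 genes and 19 of 23 probe sets fell, and in batch 2, 9 of 9 genes and 21 of 23 probe sets fell. Of all tested probe sets, 30.0% fell within batch 1 and 31.3% within batch 2. The median difference of the genes was -2.95 in batch 1 and -3.94 in batch 2, against -0.77 and -0.55 for all tested probe sets. Those backgrounds are by probe set and not by gene. Over both batches the background was -0.66 by probe set and -1.07 by gene. Whether the batches differ was not tested.

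In the cells most probe sets of the array, those of glycolysis among them, differed between the batches. Of the 22 probe sets that passed the floor on each cell array, 14 were higher on both cell arrays of batch 2 than on both of batch 1, against 30.7% of 18207 such probe sets, and 3 were lower, against 40.8%. Several of the 14 measure the same gene, and with 2 cell arrays a batch this is a description. One Pgk1 probe set read 1904 and 1140.4 in batch 1 and 4646 and 5265 in batch 2. Aldoa's mean on its representative was 4550.2 in batch 1 and 6797 in batch 2. Against this direction, an Hk1 probe set went from 976 to 506 and Pfkl's representative from 539 to 346. Hk2 was alike, at 796 and 756.

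Gapdh, the enzyme between Tpi1 and Pgk1 in the pathway, is not among the 9 genes. It is measured by 3 control probe sets placed along its transcript. Its 3′ probe set read 5945, 6111, 2563 and 2764 on exosome arrays and 5676, 5962, 6771 and 7029 on cell arrays. All exosome values were far above the exosome floor and the groups overlapped, with a difference of -0.66 on the log2 scale (two-sided exact permutation test, p = 0.14). The difference was -2.03 for the middle probe set and -2.46 for the 5′ one (exact permutation test, p = 0.0286 for each).

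The 3′ signal exceeded the 5′ signal in exosomes. The ratio of 3′ to 5′ signal of Gapdh was 4.15, 3.92, 2.67 and 2.72 on exosome arrays and 0.853, 0.811, 0.979 and 1.20 on cell arrays, with no overlap (exact permutation test, p = 0.0286). For Actb, the actin control measured in the same way, it was 2.32 to 10.6 in exosomes and 1.40 to 2.39 in cells (exact permutation test, p = 0.0571). The 5′ probe set of Actb passed the floor on 1 exosome array alone, so the other exosome ratios of Actb have no measured denominator. The Gapdh ratio, a measure of RNA length, moved with the groups as the glycolysis transcripts did, and its part in their fall was not tested. A probe set shared by Gapdh and its pseudogenes read 3272 to 8287 in exosomes and 6876 to 7258 in cells, and its difference of -0.47 did not pass (limma, adjusted p = 0.25).

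**Figure D3:**
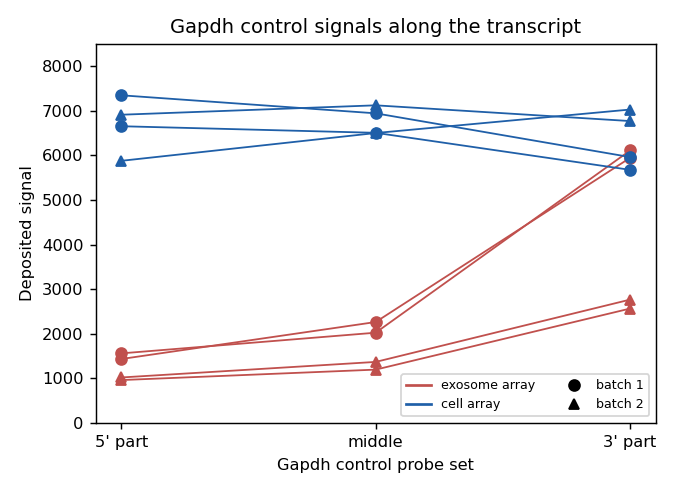
Deposited signal of the 3 Gapdh control probe sets, from the 5′ to the 3′ part of the transcript, with 1 line per array, exosome arrays in red and cell arrays in blue, circles for batch 1 and triangles for batch 2. Cell lines are flat, and exosome lines rise towards the 3′ part, where the arrays of batch 1 reach the level of the cells.

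Other genes of sugar metabolism were counted in the same way, against 44.7% that fell, 14.9% that rose and a median of -1.07 among all tested genes. Of 6 tested isozymes of glycolysis outside the chosen genes, 3 fell and 0 rose, with a median difference of -1.50, which is near that background. With the hybridisation or the poly-A controls as the scale all 6 fell, where 93.8% and 78.6% of all tested probe sets fell. With the floor as the lowest signal or within batch 1, 2 fell, where 20.9% and 30.0% of all tested probe sets did. Pfkp, the platelet-type phosphofructokinase, did not pass the floor on any exosome array and was lower there at least 5.69-fold (66.6 ± 54.5 against 1554 ± 114, SD, n = 4; limma, adjusted p = 4.72e-05). Of 13 tested genes for glucose, lactate and pyruvate handling, 10 fell and 1 rose, with a median of -2.80, and 6 fell with the floor as the lowest signal. Slc2a3, another glucose transporter, was at least 6.87-fold lower (limma, adjusted p = 4.32e-06).

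Ldha, the lactate dehydrogenase subunit that favours lactate formation, alone of these lists passed the floor on each exosome array. It read 693, 662, 383 and 404 there and 5240.5, 5434, 6040.2 and 6649 in cells, and fell by 3.48 on the log2 scale (limma, adjusted p = 4.62e-06). Ldhb, the other main subunit, rose by 4.03, to an exosome mean of 332 ± 162 from a cell mean of 16.1 ± 7.50 (SD, n = 4; limma, adjusted p = 5.38e-05), and passed the floor on 3 exosome arrays. In cells Ldhb passed the floor on 3 arrays, at signals close to it. With the floor at the 99th percentile it did not enter the test. That rise turned to -0.11 when the hybridisation controls set the scale, and was 0.77 with the poly-A controls, where it did not pass (limma, adjusted p = 0.46). It passed with quantile normalization (3.43), after subtracting the background median (3.87) and under the commonly detected scaling (4.85), so its size depended on the scaling.

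Against the same background, for the pentose phosphate pathway, which branches off after hexokinase, 5 of 6 tested genes fell and 0 rose, with a median of -3.74, and Taldo1, transaldolase, was at least 9.00-fold lower. For the citric acid cycle 13 of 15 fell and 1 rose, with a median of -3.23. Idh3g, a subunit of isocitrate dehydrogenase, was at least 4.74-fold lower, while Sdhc, a subunit of succinate dehydrogenase, rose by 1.01, to 330 ± 126 from 155 ± 28.2 (SD, n = 4), and passed the floor on 2 exosome arrays (limma, adjusted p = 0.0319). The call was lost with the replicate block, after subtracting the background median (where it was 0.68), within batch 1 (where it was 0.70) and without cell array 1, 3 or 4 or exosome array 3, and the difference turned to -3.40 with the hybridisation controls. Of 3 tested regulators of phosphofructokinase 0 fell and 1, Pfkfb2, passed as a rise (limma, adjusted p = 0.0288). Pfkfb2 read 47.6 to 252 in exosomes, under the floor of every array, and 19.5 to 38.9 in cells, so no size can be read for it. Its difference turned to -0.40 after subtracting the background median, to -0.15 with quantile normalization and to -2.54 with the hybridisation controls, and the call was lost within batch 2 and without cell array 1, 3 or 4.

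The genes most like the glycolysis transcripts across the 8 arrays were Ldha, Snrnp25, Emilin2, Hspa8 and H2-D1. Their Pearson correlations with the mean standardised profile of the 9 representatives were 0.9987 to 0.9996. The measure follows mainly the gap between the groups, which the arrays share with their scaling, and 1174 of 9779 candidate genes reached 0.95, so it is a description alone.

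The size of every fall depended on how the arrays were scaled, while the direction of the 9 representatives did not change under the 6 scalings tried. The median difference of the 9 genes was -2.16 with quantile normalization, -2.76 under the commonly detected scaling, -4.22 after subtracting the background median, -6.86 with the poly-A controls and -7.82 with the hybridisation controls. The median over all tested probe sets moved too, from -0.66 as deposited to -1.63, 0.21, -2.40, -3.81 and -4.69 in the same order. Relative to that median the glycolysis genes were at -3.00 as deposited, at -0.53 with quantile normalization and at -1.82 after the subtraction, and at -3.13 to -2.97 with the other scalings. That median is taken over probe sets, and over genes it was -1.07 as deposited. As deposited the median of the 9 genes is the value of Hk2, under the floor on all exosome arrays. The share of all tested probe sets that fell went from 37.2% as deposited to 22.9% under the commonly detected scaling, 49.0% with quantile normalization, 52.4% after the subtraction, 78.6% with the poly-A controls and 93.8% with the hybridisation controls. A scaling sets what counts as equal between the groups, so these values show unequal change and not an amount of RNA per vesicle.

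**Figure D4:**
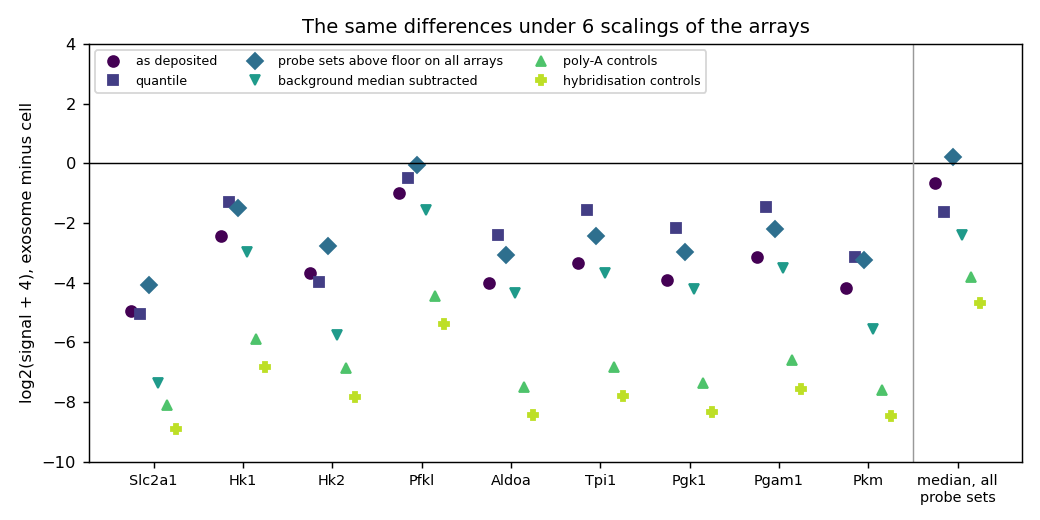
Difference between exosome and cell arrays in log2(signal + 4) for the 9 representative probe sets, with the median of all tested probe sets at the right, under 6 scalings of the arrays shown by colour and shape. All gene points lie under 0, with Pfkl nearest to it at -0.07 under the commonly detected scaling, and the falls are largest with the hybridisation controls.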

How the data were processed

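The authors deposited 1 linear intensity for each probe set and array, made with the Affymetrix software GCOS per the submitters' processing notes; no source used here gives its version, probe summary or background treatment. Each array has a 2% trimmed mean of 100.0, a global scaling that raises all signals of an array with little RNA signal. The deposited experiment files of the arrays hold instrument settings in other units and no expression values. By their hybridisation day, replicates 1 and 2 of both groups form batch 1 and replicates 3 and 4 batch 2. The files of cell replicates 3 and 4 are identical, although their signals differ, so 1 may be a copy and the batch of that array is then unknown.

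Symbols came from the platform annotation: 34945 probe sets have 1 symbol, of which 34741 matched RefSeq (GRCm38.p6, names only) by gene ID. Testing required signal above the floor (95th percentile of the background list) on 3 or more arrays of either group, which kept 20425 probe sets. Differences in log2(signal + 4) were tested with limma 3.58.1 in R 4.3.3 (eBayes with a trend), tested on simulated data. Bounds set exosome signals under the floor to the floor, and the adjusted p-values beside them are for the deposited signals. The number of arrays limits the precision. Members, lists, tests and the naming rule were chosen with earlier results of these data known. The rule names every member, and per list the genes that pass the floor on each exosome array and the largest fall and rise.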

Additional observations from a re-analysis of the deposited data

Results flagged for a closer look

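Among 60 groups of 4 arrays (23 probe sets and 7 array measures in both groups), 5 had an array far from the other 3 by Dixon's criterion, and chance gives about 1 in 20. Exosome array 1 was high for Aldoa on its representative, at 694. Exosome array 2 was high for Hk1 at 57.0, on a probe set under the floor on all exosome arrays. Exosome array 3 was low for Hk1 on its representative, at 133. Cell array 4 was high for Slc2a1 at 1238, on a probe set other than its representative. The background-list median of cell array 1 was high at 3.08.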

How the results depend on the processing

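The 9 genes that fell became 7 with quantile normalization, 8 in 8 other alternatives and 9 in the rest, and 0 rose under any; the count of probe sets that fell was 17 to 22. The probe sets that rose, 1 as reported, were 0 after subtracting the background median, with the floor at the 99th percentile, with the hybridisation or poly-A controls and within batch 2, were 2 with quantile normalization and 3 under the commonly detected scaling. The probe set shared by Hk1 and Rpl17 turned to 0.43 under that last one and to 0.79 with quantile normalization. That probe set and the Aldoa one that did not pass as reported (1.18 and 1.68) made up the 2 rises and, with the Pfkl one, the 3 rises. The same Aldoa probe set turned to -4.21 and -3.24, and the Pfkl probe set that rose to -1.08 and -0.30, with the hybridisation and the poly-A controls. Of the 5 other lists together 31 genes fell and 3 rose; the rises became 1 after subtracting the background median, 0 with either kind of control, 10 with no filter on low signals, 11 with the floor as the lowest signal, and 1 to 5 without 1 replicate (1 without cell replicate 1, 3 or 4, and 5 without exosome replicate 4). With the floor at the 99th or the 90th percentile, 1 or 7 probe sets were above it on all exosome arrays, and 4 to 6 without 1 replicate. The 1 at the 99th percentile was the probe set shared by Hk1 and Rpl17. The difference in the Gapdh ratio, 2.41, was 3.21 in batch 1 and 1.61 in batch 2. With no filter 8085 probe sets fell and 26587 rose of 45037, against 7595 and 3774. With the floor as the lowest signal 13777 of 20425 rose. The exosome floors lie above the cell floors, so dim genes rise by construction under that setting. The causes were not tested. Same-numbered exosome and cell arrays did not deviate together (r = -0.0753 to 0.00826 over probe sets). Most of these probe sets were under the floor on the exosome arrays, so this cannot show whether the numbers pair them. With the replicate block 9 genes and 20 probe sets fell and, in the other lists, 31 genes fell and 2 rose. Signals near the exosome floor limit what can be read from the exosome arrays.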

Other observations

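Of 3 probe sets shared by Gapdh and other symbols, 2 did not follow the bright one. One read 7.86 to 191 in exosomes, under the floor throughout, and 93.7 to 148 in cells. The other read 212 to 434 in exosomes, above the floor on 3 arrays, and 17.3 to 47.1 in cells, a rise by 3.11 on the log2 scale (limma, adjusted p = 0.000122) that turned to -1.17 when the hybridisation controls set the scale.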
